A study of Mus musculus with 4 samples.

Results

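The mitosis and kinetochore genes were a list of 42 mouse genes that encode the cyclins and kinases of mitotic entry, the spindle checkpoint, the kinetochore, the spindle and the machinery of cytokinesis. The list was made by name, with earlier results of these data known. All 42 were found among the 45706 genes of the count table, and all 42 were among the 16570 genes that passed the filter on low counts. Their transcripts were counted in the outflow tract, from which the great arteries leave the fetal heart, of wild-type (WT) embryos and of embryos in which Sox17, a gene for an endothelial transcription factor, was deleted. They were also split by length, because the list runs from genes with short transcripts, such as Cenpa, to giants such as Cenpf, Mki67 and Aspm.

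A cell enters mitosis when cyclin B bound to CDK1 becomes active. The chromosomes then attach to spindle microtubules through kinetochores, protein assemblies on the centromeres, and the spindle checkpoint holds back the anaphase-promoting complex until every kinetochore is attached. Transcripts of these genes accumulate in late S phase, G2 and mitosis and are low in resting cells, so that in a tissue their level follows the share of dividing cells. In the growing outflow tract at mid-gestation, mesenchyme, endothelium and muscle all still divide.

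The series compared C57BL/6 wild-type embryos with Sox17eKO embryos at embryonic day 12.5. In Sox17eKO, Sox17 was deleted by a Cre recombinase driven by an Nfatc1 enhancer, in endothelium of the aortic root. Whether the WT embryos carried Cre or a conditional allele is not given in the sources used here. Each library was a pool of outflow tracts from 10 hearts, with 2 pools per genotype, and the outflow tract was taken without sorting of cells. P-values rest on the spread between these pools, which edgeR moderated across all genes tested. Reads in genes numbered 8113463 to 21883956 per library. Sox17 itself was at 6.05 and 6.83 CPM (reads of a gene scaled to the TMM-adjusted library total) in the WT pools and 2.76 and 2.82 in the Sox17eKO pools, which gave a log2 fold change of -1.19 (standard error 0.23, edgeR adjusted p = 0.00574, and 0.0786 without WT replicate 2). The outflow tract markers Isl1, Hand2, Rspo3, Bmp4 and Sema3c were all present, with a summed level of 294 to 315 CPM in the 4 libraries. The share of uniquely placed reads that fell outside annotated features was 21.3% ± 1.28 in WT and 31.8% ± 3.27 in Sox17eKO (SD, n = 2 pools each).

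The promoters of these genes carry shared letters that the list did not use. Many G2 and mitosis genes are held off in resting cells through a short element near the transcription start, the cell cycle genes homology region (CHR), which binds the DREAM and MuvB complexes, and they often hold CCAAT boxes, which bind NF-Y. RefSeq promoters (250 bases before to 50 after the start, GRCm38.p6) were found for 35 of the 42 genes, 38 promoters in all. CHR letters, searched on both strands as TTTGAA or its variants TTTAAA and TTCGAA, were in 34 of the 38, or 89.5%, against 21.0% of 13318 promoters of other protein-coding genes tested and 28.8% of all 32851 promoters of the same length. TTTGAA alone was in 78.9% against 11.6% of promoters of other tested genes. CCAAT (both strands) was in 73.7% against 37.4%, and 55.3% held at least 2 copies against 13.7%. E2F letters (TTGGCGC or TTCGCGC, both strands) were in 15.8% against 6.79%. The reverse of CCAAT can share letters with TTGGCGC, and CHR and CCAAT letters can share an end base. By transcript length, CHR letters were in 7 of 8 promoters of long members (transcripts of at least 5000 bases), 17 of 18 of middle members and 10 of 12 of short members (under 2500 bases). Promoters are shown for 3 long members and for 3 members with lower levels in Sox17eKO, so that genes with fitted differences of opposite sign can be read side by side. Capitals mark CHR, CCAAT and E2F letters on either strand, and the start site is the base that follows the first 250.
Cenpf (chr1:189688037-189688336, minus strand): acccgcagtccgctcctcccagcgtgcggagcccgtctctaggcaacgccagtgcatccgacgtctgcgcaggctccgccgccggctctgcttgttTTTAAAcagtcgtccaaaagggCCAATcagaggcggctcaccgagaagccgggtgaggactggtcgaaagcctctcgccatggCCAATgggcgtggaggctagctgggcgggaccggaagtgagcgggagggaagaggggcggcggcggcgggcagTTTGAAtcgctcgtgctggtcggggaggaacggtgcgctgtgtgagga
Mki67 (chr7:135716330-135716629, minus strand): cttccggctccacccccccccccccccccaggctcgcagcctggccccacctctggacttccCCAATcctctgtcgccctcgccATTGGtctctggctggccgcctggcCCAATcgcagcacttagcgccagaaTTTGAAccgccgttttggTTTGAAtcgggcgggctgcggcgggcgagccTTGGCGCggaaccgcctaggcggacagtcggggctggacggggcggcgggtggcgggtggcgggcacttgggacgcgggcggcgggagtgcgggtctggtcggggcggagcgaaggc
Aspm (chr1:139454523-139454822, plus strand): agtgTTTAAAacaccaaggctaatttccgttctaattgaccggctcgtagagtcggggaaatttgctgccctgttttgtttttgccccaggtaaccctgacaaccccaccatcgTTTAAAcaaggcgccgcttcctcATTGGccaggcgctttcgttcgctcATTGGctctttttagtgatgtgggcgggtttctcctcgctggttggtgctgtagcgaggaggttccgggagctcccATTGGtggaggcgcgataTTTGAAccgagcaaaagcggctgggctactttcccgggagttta
Cdk1 (chr10:69352863-69353162, minus strand): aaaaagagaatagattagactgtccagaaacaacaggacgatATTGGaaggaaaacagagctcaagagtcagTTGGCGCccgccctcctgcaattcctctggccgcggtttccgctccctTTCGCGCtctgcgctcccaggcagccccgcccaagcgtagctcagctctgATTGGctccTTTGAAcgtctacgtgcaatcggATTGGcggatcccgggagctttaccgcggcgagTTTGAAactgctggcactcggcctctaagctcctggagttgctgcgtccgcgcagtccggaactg
Spc25 (chr2:69206164-69206463, minus strand): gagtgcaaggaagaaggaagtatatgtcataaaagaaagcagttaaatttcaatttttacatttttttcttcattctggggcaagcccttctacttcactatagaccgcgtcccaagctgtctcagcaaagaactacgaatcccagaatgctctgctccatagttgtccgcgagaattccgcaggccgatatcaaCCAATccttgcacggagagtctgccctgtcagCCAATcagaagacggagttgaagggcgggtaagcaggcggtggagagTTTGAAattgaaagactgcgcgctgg
Cdc20 (chr4:118437294-118437593, minus strand): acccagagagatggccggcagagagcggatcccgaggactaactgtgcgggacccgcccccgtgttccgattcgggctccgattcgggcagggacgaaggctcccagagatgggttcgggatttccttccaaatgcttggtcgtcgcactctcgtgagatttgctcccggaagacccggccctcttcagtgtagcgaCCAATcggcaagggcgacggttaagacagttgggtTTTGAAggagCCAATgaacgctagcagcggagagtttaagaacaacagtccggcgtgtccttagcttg

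In these 6 promoters, the CHR letters nearest the start began at position 3 in Cenpf, 7 in Aspm, 25 in Spc25, -15 in Cdk1, -18 in Cdc20 and -98 in Mki67, counted from the start site as 1. Upstream of them stood CCAAT boxes, for example at -132 and -71 in Cenpf, at -80 and -48 in Cdk1 and at -55 and -23 in Spc25. None of these letters stood in the same window of Mad2l1, Nuf2, Nusap1 and Pttg1. For Mad2l1 and Pttg1 the window did not hold the annotated gene start, at 66535390 of chromosome 6 and 43426251 of chromosome 11. A lack of these letters around those 2 starts is therefore not shown.

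The mitotic genes as a whole differed little between the genotypes. In fitted level, 6 of the 8 long members were higher and 14 of the 15 short members lower in Sox17eKO. Of protein-coding genes tested, 78.0% of the long ones were likewise higher and 73.5% of the short ones likewise lower. Of the 42 genes, 1 rose (Cenpf), none fell and 41 did not pass (edgeR's quasi-likelihood test, Benjamini-Hochberg adjusted p under 0.05 over all genes tested). Across all genes tested, 4.13% were called higher and 1.22% called lower, 684 and 202 genes, or 769 and 111 with scaling to library size alone, which moved the median of all genes by 0.029. The fitted level was lower in Sox17eKO for 26 members and higher for 16, against 51.8% lower and 48.2% higher of all genes tested. The median log2 fold change of the members was -0.085, against -0.010 for all genes tested. Before adjustment, 9 members had an edgeR p under 0.05, of which 5 were lower (Mad2l1, Cdk1, Spc25, Aurkb and Ube2c) and 4 higher (Cenpf, Aspm, Mki67 and Cenpe). The largest of these p-values, 0.0429 for Ube2c, became 0.220 after adjustment over all genes tested (edgeR). P-values of that size were therefore common among all genes tested, and the share of all genes under 0.05 was not counted. Both Sox17eKO libraries stood above both WT libraries for 7 members and below them for 17, against 26.5% and 26.2% of all genes tested. Reads per member and library ranged from 187 to 16519. Fewer dividing cells and less of each transcript per cell cannot be told apart in such pools.

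**Figure D1:**
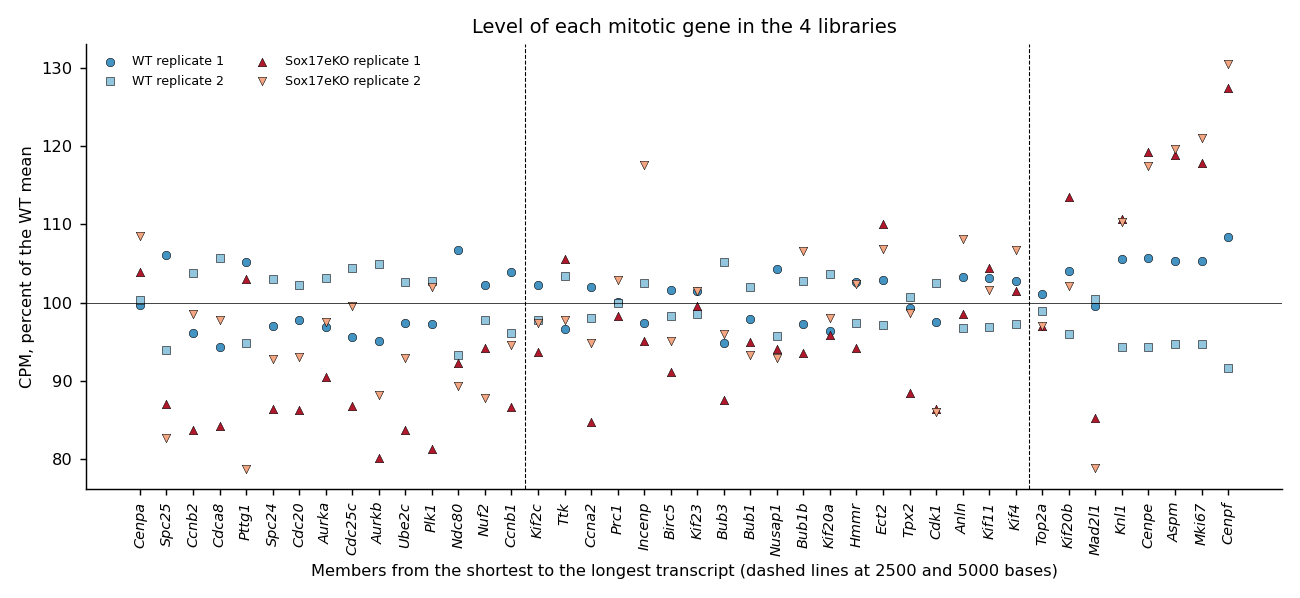
Level of each of the 42 mitotic genes in the 4 libraries, as a percent of the WT mean CPM (y axis), with genes ordered from the shortest to the longest transcript (x axis) and dashed lines at 2500 and 5000 bases. Most short members lie below 100% in both Sox17eKO pools, Cenpe, Aspm, Mki67 and Cenpf lie above both WT pools, and Mad2l1 stands apart among the long members.

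Genes of mitotic entry had lower fitted levels in Sox17eKO, and none passed the test. All 5 were lower, as 51.8% of all genes tested were. The 5 log2 fold changes ran from -0.21 to -0.091. Cdk1, the kinase that drives entry into mitosis, was at 189 and 199 CPM in the WT pools and at 168 and 167 in the Sox17eKO pools. Both Sox17eKO pools lay below both WT pools (log2 fold change -0.21, standard error 0.075, edgeR adjusted p = 0.102). Ccnb1, which encodes cyclin B1, was at 58.9 and 54.4 CPM in WT and 49.1 and 53.6 in Sox17eKO, without overlap (-0.14, standard error 0.087, edgeR adjusted p = 0.367). The second mitotic B cyclin, Ccnb2, was at 77.1 and 83.2 CPM in WT and 67.1 and 79.0 in Sox17eKO, where the groups overlapped (-0.13, standard error 0.089, edgeR adjusted p = 0.437). Ccna2 (cyclin A2) and Cdc25c, a phosphatase that activates CDK1, had log2 fold changes of -0.16 and -0.091. Plk1 and Aurka encode kinases of entry and spindle assembly. Plk1 was at 52.8 and 55.8 CPM in WT and 44.1 and 55.4 in Sox17eKO, so its lower mean came mainly from Sox17eKO replicate 1 (-0.12, standard error 0.10, edgeR adjusted p = 0.551). Aurka had a log2 fold change of -0.084 and overlapping groups.

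The spindle checkpoint genes did not pass either. Mad2l1 encodes MAD2, the checkpoint protein that binds and inhibits CDC20. It was at 61.7 and 62.2 CPM in WT and 52.8 and 48.8 in Sox17eKO, the lowest log2 fold change of the 42 (-0.29, standard error 0.084, 95% interval -0.46 to -0.11, edgeR adjusted p = 0.0521). The Mad2l1 groups did not overlap. Bub1, a checkpoint kinase at the kinetochore, was at 94.2 and 98.2 CPM in WT and 91.4 and 89.8 in Sox17eKO (-0.086, standard error 0.076, edgeR adjusted p = 0.564). The other checkpoint members were Bub3, which carries BUB1 and BUBR1 to the kinetochore (-0.12), Bub1b, which encodes BUBR1 (0.0031), and the kinase gene Ttk (0.026). The partners of the anaphase-promoting complex were all lower in fitted level, as 73.5% of short protein-coding genes tested were. Cdc20, its mitotic activator, was at 91.9 and 96.1 CPM in WT and 81.1 and 87.5 in Sox17eKO (-0.15, standard error 0.079, edgeR adjusted p = 0.275). Ube2c, which encodes a ubiquitin-conjugating enzyme of the complex, had a log2 fold change of -0.18, and Pttg1, which encodes the separase inhibitor securin, had one of -0.15. The strand setting of the counting is not given in the sources used here, and 10 of the 42 members share exonic bases with a gene on the opposite strand, so that their counts are less certain. The shared part was 29.3% of exonic bases for Kif20a (with Cdc23), 22.8% for Ube2c (with Tnnc2), 15.1% for Kif4, 12.7% for Cdc25c, 12.5% for Ccna2, 11.1% for Prc1, 7.09% for Plk1 and under 5% for Cdca8, Nusap1 and Cdc20. Top2a shares 1.35% with a small nucleolar RNA gene on its own strand.

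The chromosomal passenger complex, which corrects wrong attachments, is made of Aurora B (Aurkb), INCENP, survivin (Birc5) and borealin (Cdca8). Aurkb was at 41.2 and 45.4 CPM in WT and 34.7 and 38.2 in Sox17eKO, without overlap (log2 fold change -0.24, standard error 0.098, edgeR adjusted p = 0.158). Cdca8 was at 73.4 and 82.4 CPM in WT and 65.6 and 76.2 in Sox17eKO, with overlap (-0.13, standard error 0.090, edgeR adjusted p = 0.440). Birc5 had a log2 fold change of -0.10. Incenp, the scaffold of the complex, was at 55.5 and 58.4 CPM in WT and 54.2 and 67.0 in Sox17eKO, and its log2 fold change was 0.096. None of the 4 passed.

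The kinetochore genes held both the shortest and the longest transcript of the list. The NDC80 complex, which grips microtubules, has the subunits NDC80, NUF2, SPC24 and SPC25, all of them encoded by transcripts of 1527 to 2405 bases. Both Sox17eKO pools lay below both WT pools for each of these 4 genes, as for 42.4% of short protein-coding genes, and none passed. Spc25 was at 58.6 and 51.9 CPM in WT and 48.1 and 45.7 in Sox17eKO (log2 fold change -0.24, standard error 0.090, edgeR adjusted p = 0.121). Ndc80 was at 56.0 and 49.0 CPM in WT and 48.4 and 46.9 in Sox17eKO (-0.15, standard error 0.091, edgeR adjusted p = 0.374). Spc24 and Nuf2 had log2 fold changes of -0.15 and -0.14. Cenpa, the histone H3 variant of centromeres, has the shortest transcript of the list (1466 bases) and was the 1 short member with a higher fitted level in Sox17eKO. It was at 85.3 and 85.8 CPM in WT and 88.9 and 92.8 in Sox17eKO (0.088, standard error 0.077, edgeR adjusted p = 0.558).

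At the other end stood the genes of large kinetochore proteins. Cenpf encodes a giant coiled-coil protein of the outer kinetochore and has the longest transcript of the list, 11130 bases. Its reads numbered 3131 and 1621 in WT and 4140 and 6425 in Sox17eKO, or 243 and 205 CPM against 285 and 292. Both Sox17eKO pools lay above both WT pools, and Cenpf rose (log2 fold change 0.37, standard error 0.085, 95% interval 0.19 to 0.54, edgeR adjusted p = 0.0177). The call was lost without WT replicate 2 (0.25, edgeR adjusted p = 0.245), without Sox17eKO replicate 1 (edgeR adjusted p = 0.0627) and without Sox17eKO replicate 2 (edgeR adjusted p = 0.0745). It was also lost with a trend on transcript length removed (0.15, edgeR adjusted p = 0.369) or on coding length removed (0.14, edgeR adjusted p = 0.407). The gene spans positions 189640606 to 189688086 of chromosome 1 (mm10, minus strand). Cenpe, a kinesin that carries chromosomes to the spindle equator, was at 156 and 140 CPM in WT and 176 and 174 in Sox17eKO (0.24, standard error 0.079, edgeR adjusted p = 0.0812). Knl1, the scaffold on which checkpoint proteins gather, had a log2 fold change of 0.14 and no overlap. The Knl1 value was -0.017 with the transcript length trend removed and -0.050 with the coding length trend removed. Neither Cenpe nor Knl1 passed.

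Among the 7 spindle genes, Aspm had the highest log2 fold change. It encodes a protein of the spindle poles and was at 185 and 166 CPM in WT and 209 and 211 in Sox17eKO, without overlap (log2 fold change 0.25, standard error 0.079, edgeR adjusted p = 0.0673). Kif11, the motor that pushes the spindle poles apart, was at 187 and 176 CPM in WT and 190 and 185 in Sox17eKO (0.042, standard error 0.076, edgeR adjusted p = 0.811). The other spindle genes lay between -0.10 and 0.057. They were Kif2c, a microtubule depolymerase, Kif4, a motor of chromosome arms, Tpx2, the activator of Aurora A, Hmmr, a spindle protein and hyaluronan receptor, and Nusap1, a protein of spindle microtubules. The 6 genes of cytokinesis lay between -0.043 and 0.115. They were Kif20a, Kif20b, Kif23 and Prc1 of the central spindle, Ect2, the exchange factor that activates RhoA at the cleavage furrow, and Anln, the furrow protein anillin. None of them passed, and 5 of the 6 had a higher fitted level in Sox17eKO, against 48.2% of all genes tested.

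The last pair of members is often used to mark dividing cells. Mki67, which encodes the Ki-67 protein that coats mitotic chromosomes, was at 470 and 422 CPM in WT and 526 and 540 in Sox17eKO. Its groups did not overlap, and it did not pass (log2 fold change 0.26, standard error 0.080, edgeR adjusted p = 0.0684). Top2a, the topoisomerase that untangles sister chromatids, was at 783 and 766 CPM in WT and 751 and 751 in Sox17eKO (-0.043, standard error 0.077, edgeR adjusted p = 0.806). These commonly used proliferation markers had fitted differences of opposite sign, but the sign for Top2a was not resolved (95% interval -0.21 to 0.12). Both are long members, and 27.7% of long protein-coding genes had a higher log2 fold change than Mki67. With the transcript length trend removed, Mki67 was at 0.075 and Top2a at -0.11. With the coding length trend removed, they were at 0.042 and -0.17.

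The order by length ran through the whole list. Among the 8 long members (longest protein-coding transcript of at least 5000 bases), 6 had a higher fitted level in Sox17eKO and the median log2 fold change was 0.19. Among the 19 middle members, the median was -0.025. Among the 15 short members (under 2500 bases), 14 had a lower fitted level and the median was -0.14. All protein-coding genes tested showed an order of the same kind. Their medians were 0.15 for 3029 long genes, -0.0081 for 5790 middle genes and -0.11 for 4542 short genes. In fitted level, 78.0% of the long genes were higher and 73.5% of the short genes lower. Of those long genes, 12.5% were called higher and 0.033% lower, and 1 of the 8 long members was called, higher. Of the short genes, 0.264% were called higher and 2.11% lower, and no short member was called in either direction. Both Sox17eKO pools lay above both WT pools for 5 of 8 long members, against 54.6% of long protein-coding genes, and below for 8 of 15 short members, against 42.4% of short ones. The other shares of members stood further from their class: both Sox17eKO pools lay below for 2 of 8 long members against 7.82% of long genes, above for 5.26% of middle members against 22.7%, and below for 36.8% of middle members against 24.1%. Above both WT pools lay 6.67% of short members against 9.62% of short genes.

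**Figure D2:**
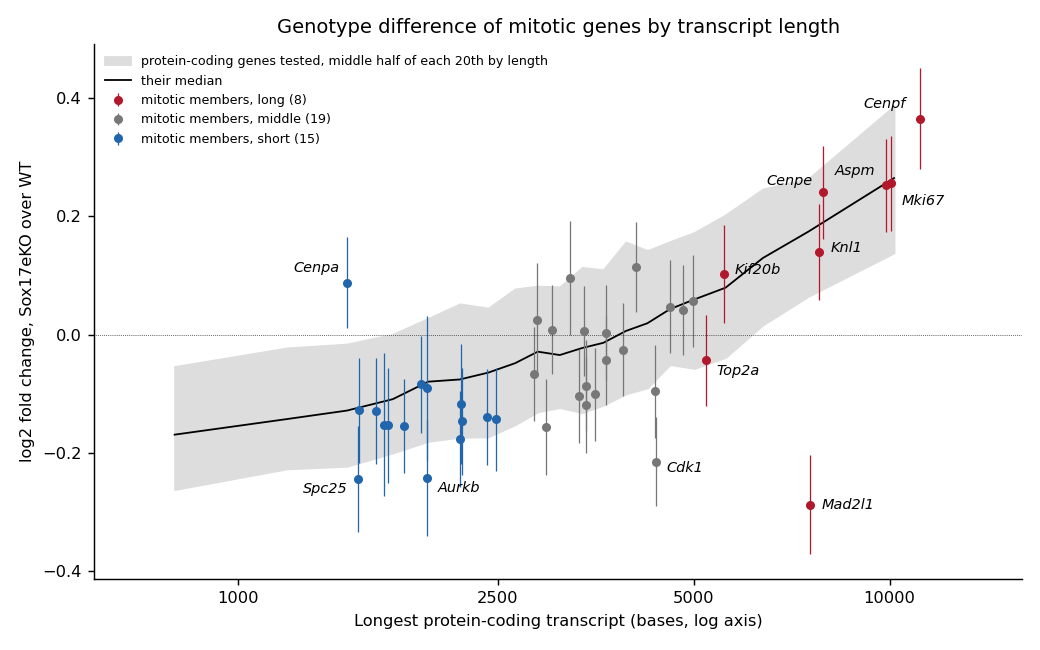
Log2 fold change of Sox17eKO over WT (y axis) against the length of the longest protein-coding transcript in bases (x axis, log scale) for the 42 mitotic genes, with bars of 1 standard error, over the median (line) and interquartile range (grey) of all protein-coding genes tested in 20 bins of length. Cenpf, Mki67, Aspm and Cenpe lie high at the right, as other long genes do, while Mad2l1 (-0.29) lies far below the grey band.

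Of all members, Mad2l1 lay nearest to the edge of its length class, and the others lay further inside theirs. Of long protein-coding genes, 2.15% had a lower log2 fold change than Mad2l1, and 16.2% had a lower one than Top2a. Of middle genes, 10.1% lay lower than Cdk1. Of short genes, 16.5% lay higher than Cenpa. Cenpf lay below 13.5% of long genes. The length class of 2 of these rests on long isoforms, since Mad2l1 has a coding sequence of 615 bases and a 1725-base transcript beside the 7557-base one, and Cdk1 has a coding sequence of 891 bases and a 1253-base transcript beside the 4375-base one. The 7 members with at least 4500 coding bases were Top2a, Kif20b, Knl1, Cenpe, Cenpf, Aspm and Mki67, of which 6 had a higher fitted level and the median log2 fold change was 0.24. Across the 42 members, log2 fold change and log2 length correlated with Pearson's r = 0.67 (Spearman's rho = 0.60) for the longest transcript and r = 0.78 (rho = 0.79) for coding length. Across 13361 protein-coding genes, r was 0.36 (rho = 0.45) for the longest transcript, and across 13360 with a coding length it was 0.33 (rho = 0.40). These are correlations across genes that share libraries and are given as descriptions.

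With a smooth trend of each library on transcript length and gene span removed, the long and short members drew together. The median of the long members went from 0.19 to 0.036 and that of the short members from -0.14 to -0.053, and the difference between them from 0.33 to 0.090. The log2 fold changes were then 0.15 for Cenpf, 0.075 for Mki67, 0.064 for Aspm and 0.080 for Cenpe. The Cenpf call ended, and Mad2l1 was called lower (-0.40, edgeR adjusted p = 0.0206), in a fit that called 0.831% of 13361 genes. With the trend on coding length in its place, Mad2l1 had a log2 fold change of -0.20 and did not pass (edgeR adjusted p = 0.257), the Cenpf value was 0.14 and no member was called. After removal of either trend, most members had a slightly lower fitted level in Sox17eKO. They were 32 of 42 with the transcript trend and 34 of 42 with the coding trend. Of 13361 protein-coding genes, 7306 were also lower with the transcript trend removed. Across the members, log2 fold change still correlated with coding length after that removal (Pearson's r = 0.45, Spearman's rho = 0.53). With the coding trend removed, r was 0.18 (rho = 0.22). The median of all 42 members was -0.047 with the transcript trend removed and -0.071 with the coding trend removed, against -0.019 for the 13361 genes of the transcript trend fit.

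**Figure D3:**
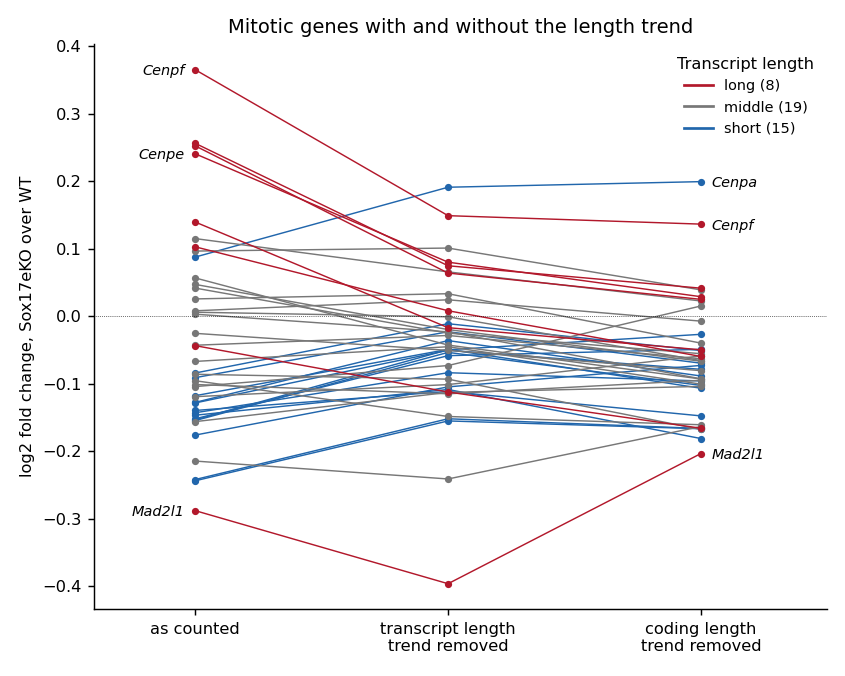
Log2 fold change of Sox17eKO over WT (y axis) of each of the 42 mitotic genes as counted, with the trend on transcript length and gene span removed, and with the trend on coding length and gene span removed (x axis). The median of the long members (red) goes from 0.19 to 0.036 and -0.012 and that of the short members (blue) from -0.14 to -0.053 and -0.088, and Mad2l1 is lowest in all 3 columns.

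The split between long and short members was also seen in single libraries. The median of the long members minus that of the short members, in log2 CPM relative to the WT mean of each gene, was 0.11 in WT replicate 1, -0.11 in WT replicate 2, 0.41 in Sox17eKO replicate 1 and 0.29 in Sox17eKO replicate 2. Both Sox17eKO pools stood above both WT pools, and the WT pools themselves differed in the same measure. Over all protein-coding genes tested it was 0.051, -0.051, 0.24 and 0.27 in the same order. The share of reads outside features moved with it between the genotypes, and its part in the result was not tested.

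**Figure D4:**
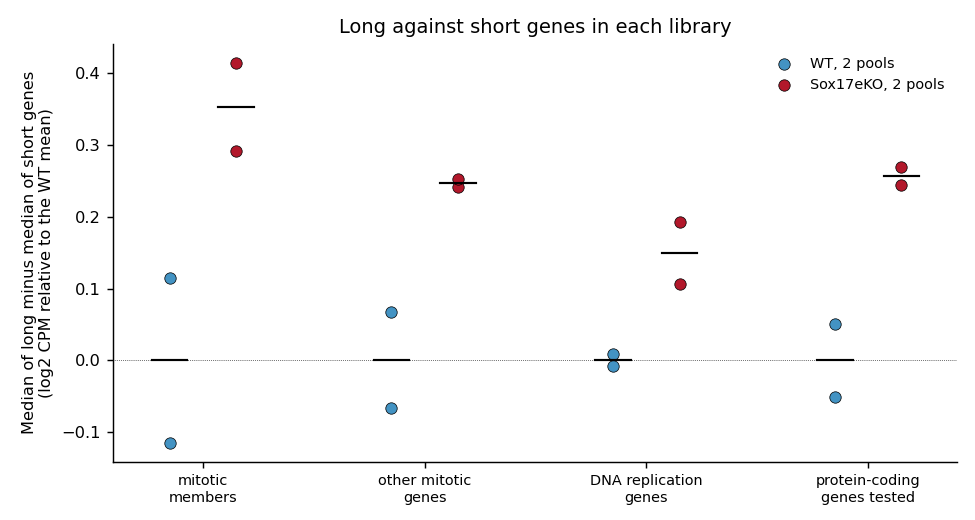
Median of long minus median of short genes in log2 CPM relative to the WT mean (y axis) in each of the 4 pools (points, with the group mean as a bar) for the 42 mitotic members, 103 other mitotic genes, 42 DNA replication genes and all protein-coding genes tested (x axis). In every set the Sox17eKO pools lie above the WT pools, at 0.41 and 0.29 for the members and 0.24 and 0.27 for all protein-coding genes.

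Other genes of the cell cycle showed the like order. Of 103 other mitotic genes, 1 fell and none rose, with a median log2 fold change of -0.0094. The gene that fell was Anapc11, the RING subunit of the anaphase-promoting complex, at 52.7 and 53.9 CPM in WT and 44.1 and 42.3 in Sox17eKO (-0.30, standard error 0.087, edgeR adjusted p = 0.0484). That call was lost with any 1 library left out (edgeR adjusted p from 0.104 to 0.228). The 17 long genes of this list had a median of 0.11 and the 23 short ones a median of -0.16. Of its groups, condensin (8 genes) had a median of 0.0024, cohesin and cohesion genes (12) one of 0.046, other kinetochore genes (25) one of -0.060, regulators of entry (19) one of -0.062 and other spindle and cytokinesis genes (27) one of 0.010. Of 42 DNA replication genes none passed by edgeR, and none was called by limma-voom or DESeq2. A lower fitted level in Sox17eKO was seen for 35 of them (median -0.081), against 51.8% of all genes tested. The 3 with the smallest p were Pcna, the sliding clamp of DNA polymerase (-0.25, edgeR adjusted p = 0.0616), Cdt1, which licenses origins (-0.42, edgeR adjusted p = 0.0634), and Ccne2, cyclin E2 (-0.23, edgeR adjusted p = 0.148). All 18 short genes of that list had a lower fitted level, against 73.5% of short protein-coding genes tested. With the transcript length trend removed, 12 of them did. Of all 42 replication genes, 31 were then lower, with a median of -0.065. Of 13361 protein-coding genes tested, 7306 were then lower, with a median of -0.019.

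Of 13 genes that restrain the cell cycle, Cdkn1c fell and none rose. Cdkn1c encodes the CDK inhibitor p57 and was at 619 and 643 CPM in WT and 475 and 504 in Sox17eKO, without overlap (log2 fold change -0.37, standard error 0.078, edgeR adjusted p = 0.0104). The call was lost without WT replicate 2 (edgeR adjusted p = 0.0981), without Sox17eKO replicate 1 (edgeR adjusted p = 0.146) and with either length trend removed (-0.26 and -0.27, edgeR adjusted p = 0.0514 and 0.0530). The transcript of Cdkn1c is short, 1901 bases.

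Markers of cell types that divide in the embryo were compared beside the mitotic genes, and their part in the results was not tested. The summed level of 9 erythroid genes was 2456 and 3324 CPM in the WT pools and 1635 and 2191 in the Sox17eKO pools, and none of the 9 was at 0. All 9 had a lower fitted level in Sox17eKO, against 51.8% of all genes tested and 73.5% of short protein-coding genes tested. By the edgeR test, 6 marker genes fell over all lists: Hbb-y (erythroid), Nppa (cardiomyocyte), Cnn1 (smooth muscle), Tie1 (endothelium), and Upk3b and Lrrn4, which were 2 of the 4 epicardial genes. Pdgfra (cushion mesenchyme) rose, and no other marker gene passed. In fitted level the lists were often split. Cushion mesenchyme had 3 genes higher and 3 lower in Sox17eKO, and cardiomyocyte 3 higher and 4 lower. Smooth muscle had 1 higher and 3 lower, endothelium 1 higher and 5 lower, and epicardium 0 higher and 4 lower. Of all genes tested, 1.22% were called lower and 4.13% higher. Whether these marker calls held with a library left out or a length trend removed was not examined. For 6 endothelial genes the sums were 682 and 713 against 617 and 677 CPM, for 6 genes of cushion mesenchyme 2561 and 2271 against 2825 and 2670, and for 7 cardiomyocyte genes 15297 and 15934 against 15572 and 17367. Smooth muscle genes (4) summed to 1857 and 1889 against 1700 and 1645 CPM, and epicardial genes (4) to 264 and 290 against 242 and 223. Macrophage genes (5) lay between 55.4 and 58.4 CPM in all libraries, and neural crest and Schwann precursor genes (4) between 4.55 and 7.16. Liver genes (5) varied within genotypes, at 72.2 and 11.7 CPM in WT and 5.44 and 125 in Sox17eKO.

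Levels between members were set side by side per kilobase of the longest transcript, in the WT mean. Top2a was highest at 148 CPM per kilobase, followed by Ccna2 at 82.4, Prc1 at 60.6 and Cenpa at 58.4. The lowest were Mad2l1 at 8.20, Knl1 at 10.6, Cdc25c at 11.6 and Ttk at 13.6 CPM per kilobase. Per kilobase of coding sequence, Cdk1 was highest at 218, followed by Cenpa at 213, Ccna2 at 193 and Birc5 at 192, and Mad2l1 was at 101. The order of the members by level therefore depended on which length was used.

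**Figure D5:**
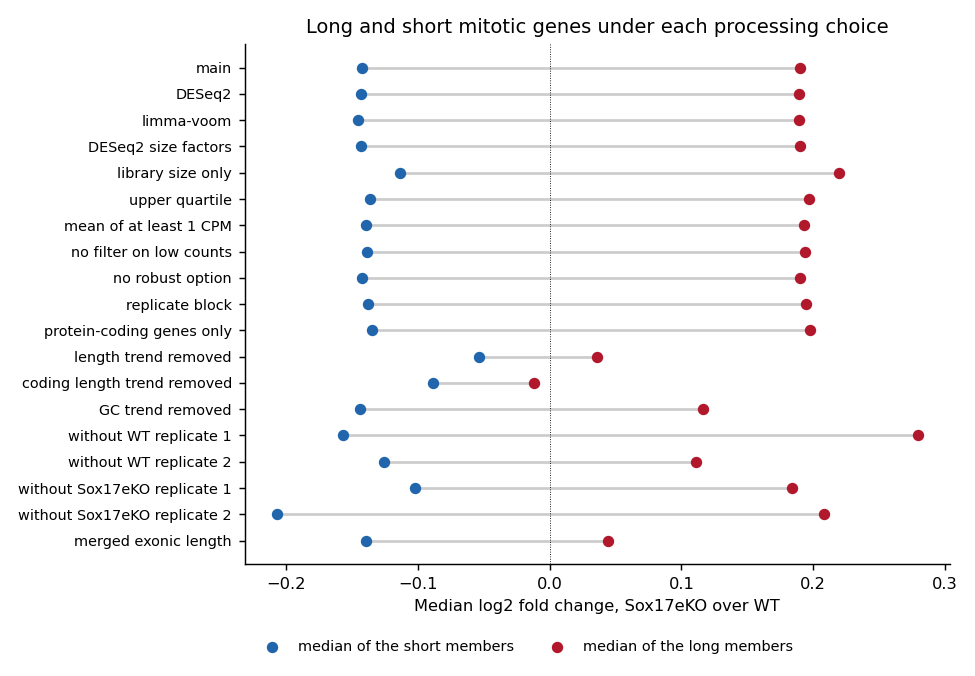
Median log2 fold change of the 15 short (blue) and 8 long (red) mitotic genes (x axis) under each processing choice (y axis), where main is the fit reported and the last line classes the genes by merged exonic length. The long median lies above the short one in every line, from 0.28 against -0.16 without WT replicate 1 to -0.012 against -0.088 with the coding length trend removed.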

How the data were processed

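RNA from 4 pooled outflow tract libraries was sequenced from strand-specific Illumina libraries, per the labels' protocols. Values were deposited as raw counts of reads for each Ensembl gene. TopHat2, HTSeq and mm10 were used, per the submitters' processing notes. Versions, annotation release and strand setting are not given in the sources used here. Of 45706 genes, 45143 matched GENCODE M21 (GRCm38), which gave symbols, coordinates and lengths; the 5 HTSeq summary rows were left out. The share of alignments that were not unique was 72.5% to 79.0% of all rows summed.

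Groups came from the sample titles. The test was edgeR 4.0.16 (R 4.3.3) quasi-likelihood, robust, TMM, genotype as the only term, filterByExpr, prior count 0.125, with 2 residual degrees of freedom and a biological coefficient of variation of 0.0791. Standard errors were derived from the fold change and its F statistic. CPM were TMM-scaled, and 0.5 was added for log2 medians per library. Pools of 1 genotype were distinct libraries: chi-square over its degrees of freedom was 4.93 for WT and 6.70 for Sox17eKO. Same-numbered pools did not vary together (r = -0.032 over 16570 genes). Alternatives were DESeq2 1.42.0, limma-voom 3.58.1, other scalings and filters, a replicate block, each library left out, and smooth trends on length with gene span, or on GC, removed per library with mgcv 1.9.3. Scripts were tested on simulated data. The members and lists were chosen with earlier results of these data known. All 42 members are named, with values per library for called members, the 4 longest, the 4 shortest and Cdk1, Ccnb1, Plk1, Aurkb, Bub1, Ndc80, Kif11, Top2a and Mki67, plus others where a group turned on them; of the other mitotic, replication and brake lists, each taken whole, called genes or, with none called, the 3 with the smallest p. Markers were planned as summed levels, and called marker genes are named beside them. Protein motifs were planned and not run, as no protein table was used here.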

Additional observations from a re-analysis of the deposited data

Results flagged for a closer look

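The share of uniquely placed reads that fell outside annotated features, a part of the table that the gene comparison did not use, was 34.1% in Sox17eKO replicate 1 and 29.5% in Sox17eKO replicate 2, above the 22.2% and 20.4% of the WT libraries. Its part in the order of the mitotic genes by length was not tested.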

How the results depend on the processing

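With 1 library left out, 103 to 970 genes were called (90 to 641 higher and 13 to 329 lower), 103 of them without WT replicate 2 and 289 without Sox17eKO replicate 1, against 886 (684 and 202) in the main result. DESeq2 called 409 (300 and 109), limma-voom 517 (421 and 96), no filter on low counts 1364 (387 lower), and the fit with the replicate block 1684 (1107 and 577). Removal of the length trend left 111 (71 and 40) and of the coding length trend 108 (78 and 30), the last chosen after seeing the data. Lower calls numbered 111 with library size only, 105 without the robust option and 492 with the GC trend removed.

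Members called numbered 1 in the main result, 0 to 3 with 1 library left out, 2 with DESeq2, 4 without a filter, 3 among protein-coding genes, 5 with the GC trend removed, 0 with the coding length trend removed and 6 with the replicate block (Cdk1, Cenpf, Mad2l1, Mki67, Aspm and Cenpe). Same-numbered pools did not vary together, which cannot exclude a pairing, and the sample titles state none. DESeq2 gave no adjusted p for 3 members. Other mitotic genes called numbered 0 to 1 with 1 library left out, 0 with DESeq2, limma-voom, library size only, upper quartile, no robust option and either length trend removed, 2 without a filter and among protein-coding genes, 4 with the replicate block and 5 with the GC trend removed. DNA replication genes called numbered 0 to 1 with 1 library left out, 1 without a filter, 2 with the replicate block and 3 with the GC trend removed.

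The median of all members was -0.090 to -0.028 with 1 library left out and -0.047 with the length trend removed. The long median was 0.11 to 0.28 with 1 library left out (0.11 without WT replicate 2), 0.036 and -0.012 with the length and coding length trends removed, and 0.044 by merged exonic length, which puts 20 members in the long class and 4 in the short one. The short median was -0.21 to -0.10 with 1 library left out and -0.053 with the length trend removed. The long minus short difference was 0.33, and 0.24 to 0.44 with 1 library left out, 0.090 and 0.076 with the length and coding length trends removed, 0.18 by merged exonic length, 0.22 for the longest against the shortest 14 members and 0.22 for the same by coding length.

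Some members changed sign, and not all of them were near 0 in the main fit. There, Knl1 was at 0.14, Pttg1 at -0.15, Plk1 at -0.12, Birc5 at -0.10, Kif20b at 0.10 and Incenp at 0.096. With the length trend removed the members that changed sign were Kif23 (-0.00079), Bub1b (-0.023), Anln (-0.020), Kif11 (-0.025), Kif4 (-0.043) and Knl1 (-0.017). With the coding length trend removed they were Ttk (-0.040), Prc1 (-0.0072), Birc5 (0.015), Kif23 (-0.066), Bub1b (-0.093), Anln (-0.067), Kif11 (-0.055), Kif4 (-0.093), Kif20b (-0.060) and Knl1 (-0.050). With the GC trend removed they were Ttk (-0.041), Prc1 (-0.060), Kif23 (-0.059), Bub1b (-0.027), Anln (-0.020) and Kif11 (-0.028). Bub1b was at -0.0017 with the replicate block, and Hmmr at 0.0046 with library size only. With 1 library left out, ranges that crossed 0 were -0.35 to 0.037 for Pttg1, -0.20 to 0.00086 for Cdc25c, -0.30 to 0.030 for Plk1, -0.029 to 0.082 for Ttk, -0.026 to 0.041 for Prc1, -0.070 to 0.24 for Incenp, -0.017 to 0.031 for Kif23, -0.096 to 0.093 for Bub1b, -0.094 to 0.0071 for Kif20a, -0.088 to 0.032 for Hmmr, -0.022 to 0.11 for Anln and -0.0044 to 0.091 for Kif11. The cause was not tested where a value moved outside the trend removals. Fits with 1 library left out had 1 residual degree of freedom, and the lone sample is assumed to vary like the other group. Depth was lowest in WT replicate 2, and the least covered member, Cdc25c, had 187 reads there.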
